A study of Xenopus laevis with 3 samples.

Results

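Cytoplasmic ribosomal proteins were examined in the inner ear of larval Xenopus laevis. They were taken as all frog probe sets with a single gene symbol that begins with rpl, rps, rplp or rpsa and follows the naming of ribosomal proteins, with the letters for gene copies removed and the rps6k kinases left out. This gave 147 probe sets of 70 genes, out of 32475 frog probe sets, of which 15495 carry a single symbol and belong to 9240 genes. There were 45 genes of the large subunit and 25 genes of the small subunit. Total RNA came from inner ears of larvae at stages 56 to 58, which are 38 to 44 days old. Ears of 10, 7 and 8 animals were pooled for replicates 1, 2 and 3, and each pool was amplified into labelled cDNA and hybridized to 1 Affymetrix array. All 3 arrays are of 1 condition, without a treatment or control group, so levels, ranks and gene copies can be compared. Values are given as GCRMA values in log2 units, for which intensities were corrected for background, normalized over the arrays and combined into 1 value per probe set.

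Ribosomes translate mRNA in every cell. The small subunit reads the codons, the large subunit joins the amino acids, and each is built in the nucleolus from rRNA and a set of proteins of which every ribosome holds nearly all in equal number. In the inner ear, as elsewhere, ribosomal protein mRNA is carried by every cell type, so in pooled tissue fewer cells of a type and less RNA per cell cannot be told apart. X. laevis descends from a cross of related frogs and still holds many genes as copies on its long (.L) and short (.S) chromosomes.

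The arrays were on one scale, with medians of 7.51, 7.52 and 7.55 over frog probe sets and Pearson's r of 0.994 to 0.996 between arrays. Of 13 genes listed as inner ear markers, 8 had a probe set and all 8 reached a mean of 4, the limit used here for detection, with a median of 11.82. Among them otos, which encodes otospiralin of the non-sensory cells, had a mean of 15.02 and gjb2, a gap junction gene of supporting cells, had 14.88. Genes known from neighbouring tissues were detected too, as all 8 muscle genes, all 9 red cell genes and all 4 cartilage genes with a probe set reached a mean of 4. Of all annotated genes, 79.9% reached 4 with their highest probe set, so such counts alone tell little about a tissue. Of the 9 red cell genes 8 were called above 4 with their highest probe set. Counted per probe set and not per gene, 63.1% of all frog probe sets and 71.8% of those with 1 symbol were called. The gene hba1, which encodes a globin, had 2.56, 3.50 and 7.75 and passed 4 in replicate 3 only. The muscle genes had a median of 10.81 in replicate 1, 10.96 in replicate 2 and 9.26 in replicate 3. The part of these tissues in the ribosomal protein signal was not tested.

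Signals of ribosomal protein genes lay near the upper end of the array. Taking for each gene its highest probe set, 68 of 70 genes (97.1%) had a mean of 4 or higher, against 79.9% of all annotated genes. With plain _at probe sets only, which match a single transcript by design, it was 48 of 57 genes (84.2%), against 78.7%. A mean of 14 or higher was found for 63 of 70 (90.0%), against 2.34% of all annotated genes, and 41 genes reached 15. The median over the 70 genes was 15.07, with quartiles of 14.75 and 15.28, while the median over all 9240 genes was 9.60. Their median rank was 88.5, so that 0.269% of frog probe sets lay above the median member. The large subunit had a median of 15.04 and the small subunit one of 15.12, and their difference was not tested. As probe sets differ in how well they bind and saturate, an order among the 70 genes is an order of signal and cannot be told apart from an order of probes.

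Of the 147 probe sets, 124 (84.4%) had a mean above 4 by limma's one-sided test at an adjusted p under 0.05, against 63.1% of all frog probe sets. Among the 10 brightest frog probe sets 5 were ribosomal, among the 100 brightest 53, and among the 1000 brightest 105. About equal shares of the top 10 and the top 100 were therefore ribosomal, and the share fell beyond. The top 500 held 103 members, only 2 more were found between places 500 and 1000, and the rest of the 147 lay below. Ribosomal probe sets are 0.453% of frog probe sets and gave 6.90%, 6.95% and 6.80% of the summed signal on the linear scale in replicates 1, 2 and 3. A further 18 probe sets carry several symbols that include a ribosomal protein, which leaves them outside the count. All 18 had a mean of 14 or higher, with a range of 14.74 to 15.47, and 15 of them were among the 100 brightest.

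**Figure D1:**
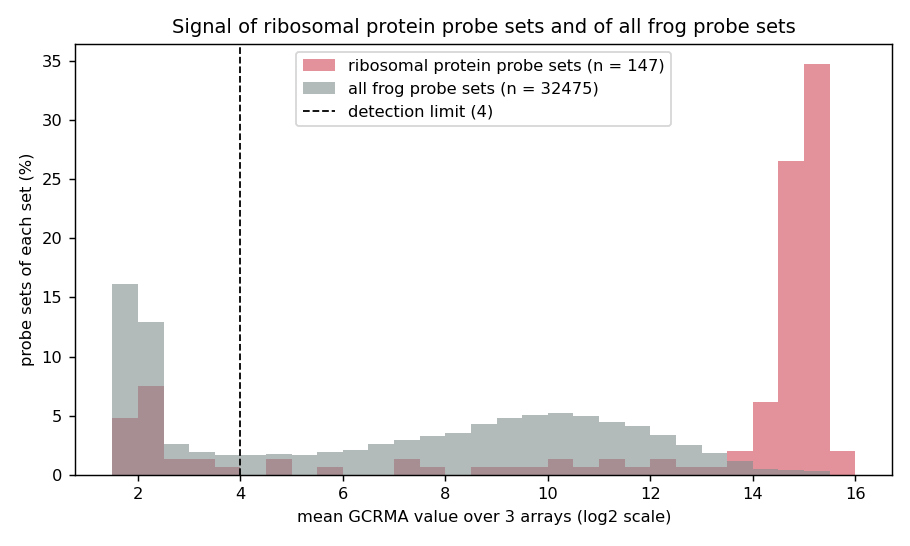
Distribution of mean GCRMA values (log2 scale, mean of 3 arrays) over the 147 ribosomal protein probe sets and over all 32475 frog probe sets, as the percentage of each set per bin, with a dashed line at the detection limit of 4. Ribosomal probe sets gather at the right, with a median of 14.87 against 7.51, and 23 of them lie under 4.

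The brightest frog probe set of all measured rps3a, a protein of the small subunit near the exit of the mRNA. It had 15.83, 15.80 and 15.79 in replicates 1, 2 and 3. Almost as bright was rps14, which encodes a small subunit protein whose reduced dose underlies a human anaemia, with 15.47, 15.48 and 15.48. For rps19, the gene most often mutated in human Diamond-Blackfan anaemia, values were 15.35, 15.40 and 15.37. All 3 genes were thus nearly level over the arrays, and with these probe sets rps3a lay above the other 2 in each of them. The rps3a probe set ends in _s_at. A plain _at probe set of the .L copy of rps3a had 15.29, 15.30 and 15.28, below the values given for rps14 and rps19 in each array. Those values come from probe sets that end in _a_at for rps14 and _s_at for rps19. The brighter plain _at probe set of rps19 had 14.51, 14.47 and 14.24, below the plain one of rps3a. The gene rpsa encodes a protein of the small subunit that was also described as a laminin receptor, and it had 15.12, 15.12 and 15.13.

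Only 3 small subunit genes had a mean under 14, which are rps4x, rps6 and rps15a. The gene rps6 encodes the protein that is phosphorylated by the S6 kinases when growth signals are active. It had 11.96, 11.95 and 11.44, the lowest value being that of replicate 3. The gene rps4x, which encodes a protein of the small subunit body, had 12.60, 12.41 and 12.35. The gene rps15a, which encodes a protein that binds small subunit rRNA, was not detected, with 3.11, 3.22 and 3.02. Each of these genes was measured by 1 single-symbol probe set. The symbols of all 3 also occur on probe sets with several symbols, which belong to the 18 given above with means of 14.74 or higher. The low values are thus those of the single-symbol probe sets alone.

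In the large subunit the highest values were those of rpl32, rpl23a and rpl9. The gene rpl32 had 15.61, 15.61 and 15.60, which made it the third brightest frog probe set. The gene rpl23a, which encodes a protein at the exit of the peptide tunnel that binds the signal recognition particle, had 15.55, 15.49 and 15.44. For rpl9, which encodes a protein near the factor binding site, the values were 15.45, 15.42 and 15.38. Replicate 3 was the lowest of the arrays for all 3 genes, by less than 0.11. The partners rpl5 and rpl11, which form a particle with the smallest rRNA and can bind Mdm2 in mammals, had means of 15.15 ± 0.01 and 15.08 ± 0.02 (SD, n = 3 arrays). The gene rpl10, which encodes a protein added late in assembly of the large subunit, had 15.27 ± 0.02 (SD, n = 3).

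The stalk of the large subunit, which recruits the translation factors that use GTP, is made by rplp0, rplp1 and rplp2. Its base rplp0 had 14.77, 14.79 and 14.76. The acidic protein genes had 14.40, 14.47 and 14.37 for rplp1 and 14.96, 14.99 and 15.01 for rplp2. In the ribosome the acidic proteins are present in more copies than the other proteins, and here their values were below the median of the 70 genes. Of canonical large subunit genes, only rpl37 lay under 14. It had 4.19, 4.88 and 4.77, all above 4, with an adjusted p of 0.0262 by limma's one-sided test. The gene was measured by 1 probe set, a plain _at one of its .S copy, so the low value is that of this probe set alone. The call was lost without replicate 2 (adjusted p = 0.0921) and without replicate 3 (adjusted p = 0.0896).

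**Figure D2:**
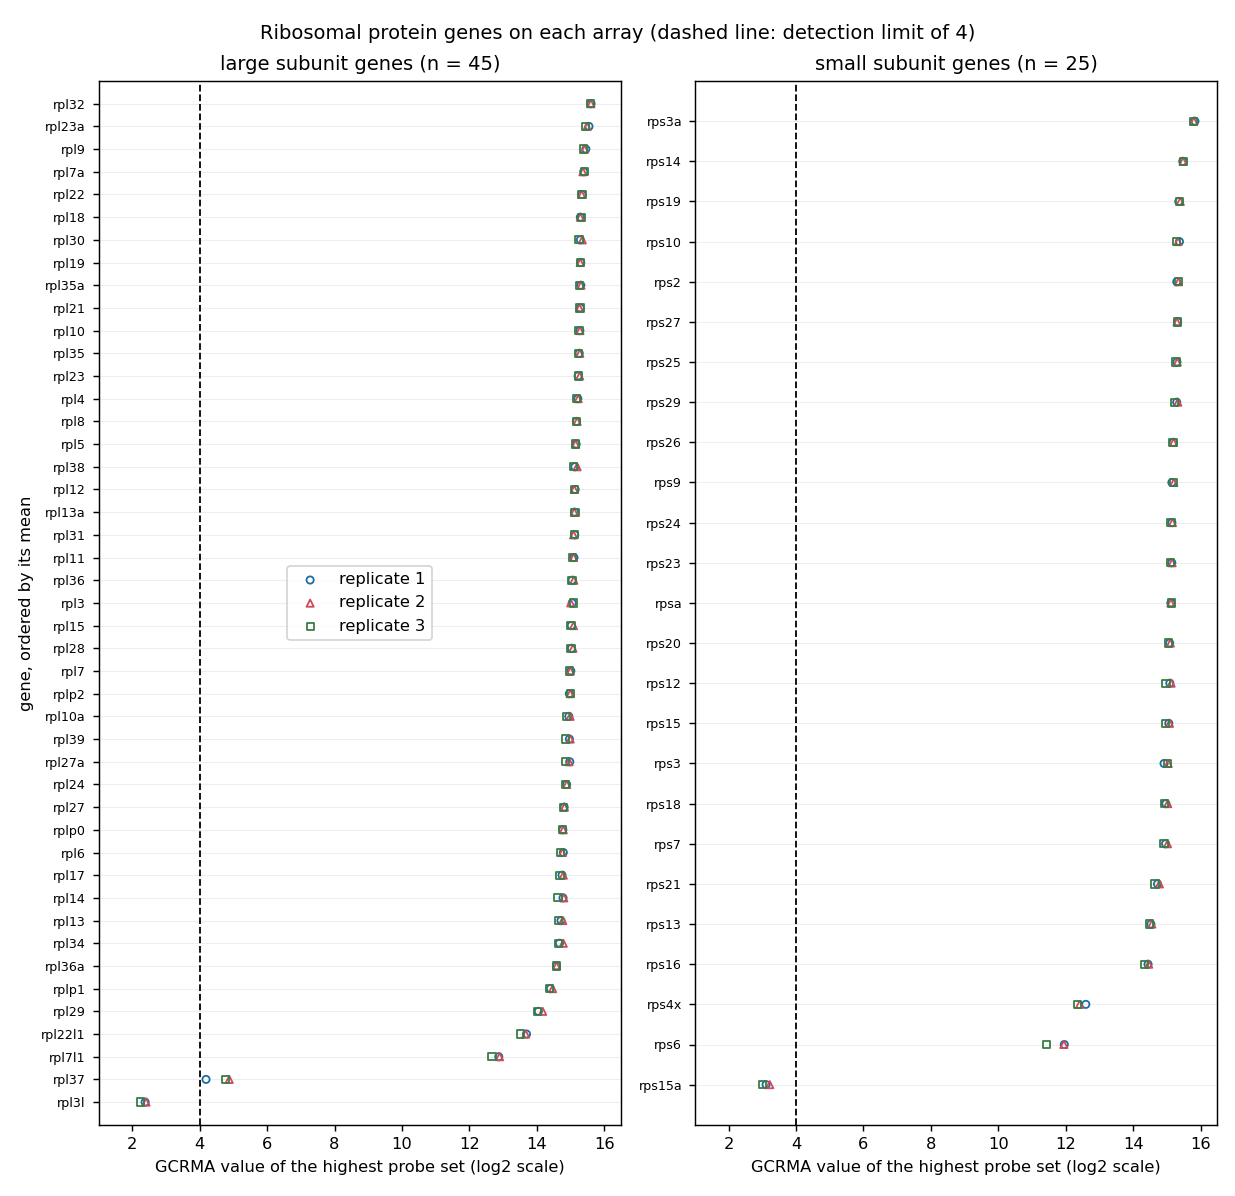
GCRMA value (log2 scale) of the highest probe set of each of the 70 ribosomal protein genes, with the genes of each subunit in order of their mean, 1 point per array and a dashed line at the detection limit of 4. Nearly all genes form a band between 14 and 16, below which lie rpl3l, rps15a, rpl37, rps6, rps4x, rpl7l1 and rpl22l1.

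Paralogues of ribosomal proteins are proteins that resemble a canonical member, and some of them are used in particular tissues. In mammals rpl3l is the paralogue of rpl3 that is found in heart and skeletal muscle. It had 2.38, 2.41 and 2.24 here and was not detected, and its 3 probe sets all lay under 4, whereas rpl3 had 15.05, 15.01 and 15.08. The gene rpl22l1 had 13.69, 13.67 and 13.52, against 15.34, 15.33 and 15.34 for rpl22, of which it is the paralogue. For rpl7l1 the values were 12.87, 12.89 and 12.67, against a mean of 14.99 ± 0.01 for rpl7 (SD, n = 3). In each of the 3 pairs the paralogue lay below the canonical gene in all arrays, on probe sets whose affinities are not known.

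The 70 genes include 67 of 80 canonical ribosomal proteins, 42 of 47 in the large subunit and 25 of 33 in the small. The others are not analysed here as members. Outside the naming rule, fau, which encodes a small subunit protein fused to a protein like ubiquitin, had a probe set of its own with 15.18, 15.19 and 15.17.

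Probe sets of the same gene often disagreed. Of the 41 genes with several probe sets, 17 (41.5%) had probe sets on both sides of 4, against 31.2% of the 3936 annotated genes with several. These counts pool the .L and .S probe sets of a gene. Where 1 copy had several probe sets, they lay on both sides of 4 in 13 of 33 cases (39.4%). The count per copy was not made over all genes, so it has no background to be read against. The median range between the highest and lowest probe set of a gene was 7.04, against 2.43 over all genes with several. The genes compared here were not matched for signal level, and brighter genes have more room for a wide range. In rps19 the range was 13.45, as one probe set had a mean of 1.93 and another 15.37. The choice of probe set thus sets the value of many of these genes. A range under 1 was found for 13 of the 41 genes, a share like that of all genes with several (1186 of 3936). For 11 of the 41 every probe set reached 14, against 30 of 3936.

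A total of 23 probe sets of 19 genes had a mean under 4. For 16 of the 19 genes another probe set reached 14, and for rpl7l1 another one reached 12.81. Only rpl3l and rps15a had no single-symbol probe set at 4 or higher. The low values lay almost entirely in probe sets with the plain ending _at, which are designed to match a single transcript, with 22 of 87 under 4 (25.3%), against 27.4% of all single-symbol probe sets with that ending. In plain probe sets the share of members under 4 was thus near the background. Their signal was not, with a median of 14.39 and 46 of 87 at 14 or higher, against 1.26% of all such probe sets. The endings _a_at, _s_at and _x_at stand for probes shared among transcripts of a gene, among genes, or with similar sequences. Of these 0 of 28, 1 of 13 and 0 of 19 were under 4, against 17.5%, 26.7% and 27.8% of all single-symbol probe sets with these endings. Signal from related transcripts in the shared probe sets was not tested. Probe sets whose name gives an orientation letter A were under 4 in 7 of 20 cases, against 16 of 127 with the letter S, while over all single-symbol probe sets the shares were 29.0% and 26.5%. Those designed from full-length cDNA clones were under 4 in 5 of 52 cases (9.62%), against 18.9% of all such probe sets.

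**Figure D3:**
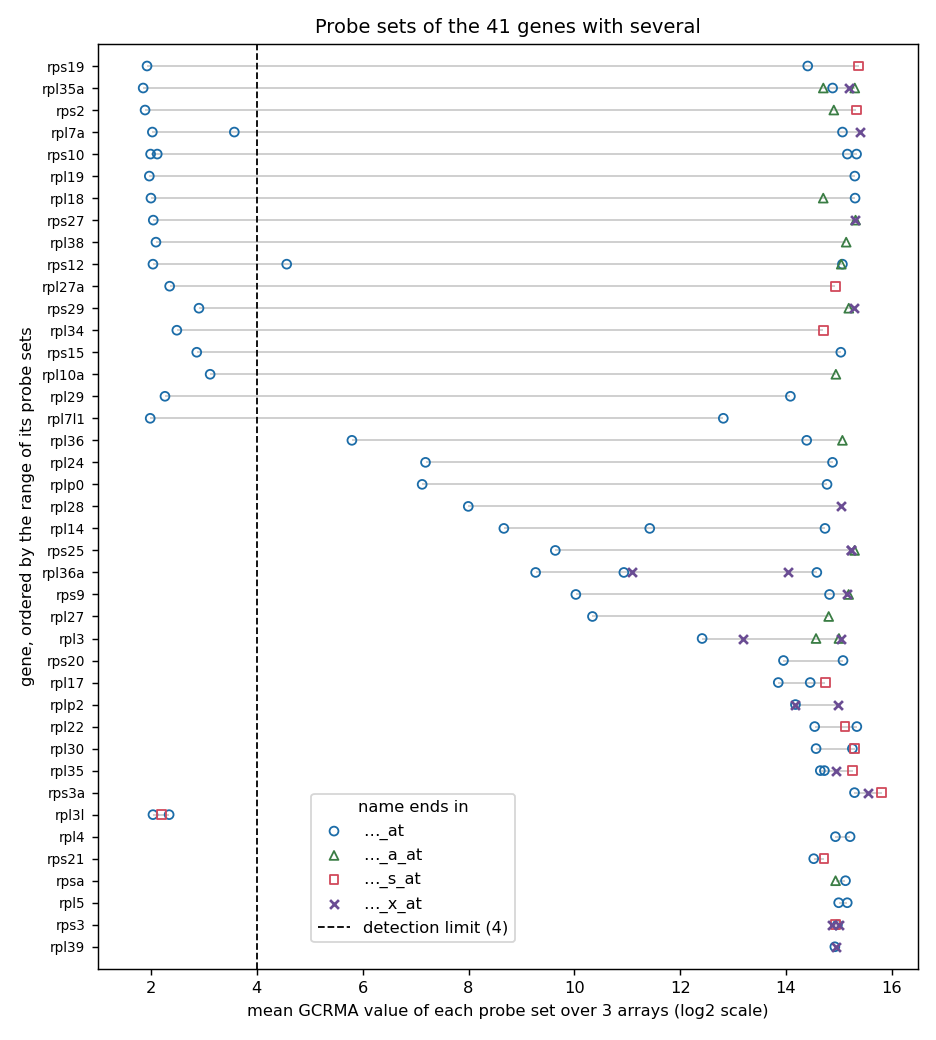
Mean GCRMA value (log2 scale, 3 arrays) of each probe set of the 41 ribosomal protein genes with several, with genes ordered by the range of their probe sets and symbols for the ending of the probe set name. In 17 genes the probe sets lie on both sides of the detection limit of 4, and nearly all low ones end in plain _at.

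Both copies were measured for 17 ribosomal protein genes, among 2009 genes with both copies on the array. For each copy its highest probe set was used, and the .L value minus the .S value was tested over the arrays with limma. The .L copy was higher by 1 or more, at an adjusted p under 0.05, in 3 genes (17.6%), against 31.5% of all genes with both copies. The .S copy was higher in 1 gene (5.88%), against 24.8%. By the adjusted p alone, whatever the size, .L was higher in 6 genes (35.3%), against 45.1%, and .S in 7 (41.2%), against 37.7%. With the highest probe set of each copy, copies of ribosomal protein genes were mostly close in signal. The difference was under 1 in 13 of 17 genes (76.5%), against 43.5% of all genes with both copies, and its median size was 0.29, against 1.28. Where both copies reached 14 the median size was 0.19 for 13 ribosomal protein genes and 0.12 for 14 other genes. At that level the median was thus no smaller for the ribosomal copies than for those of other genes. Among the 13 genes with a difference under 1, only in rpl5, rps10 and rpl4 was the highest probe set of both copies a plain _at one. In the others at least 1 copy was read by a probe set whose ending stands for shared probes. Signal shared between copies in such probe sets was not tested. With plain _at probe sets only, 10 ribosomal protein genes had both copies. The .L copy was then called higher in 3 (30%), against 32.3% of all genes with both, and .S in 2 (20%), against 24.96%. With plain probe sets the shares called were thus near those of all genes. The copies are measured by different probe sets, so a difference in transcript and one in probe affinity cannot be told apart.

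The 3 genes with a higher .L copy are also those with a copy under 4, which is 17.6% of 17, against 14.0% of all genes with both copies. They are rpl34 and rpl29, of the large subunit, and rps15, of the small subunit head. For rpl34 the .L values were 14.67, 14.79 and 14.64, and the .S values were 2.49, 2.53 and 2.45. For rps15 the .L values were 15.06, 15.08 and 14.96, and the .S values were 2.87, 2.86 and 2.86. For rpl29 the .L values were 14.05, 14.17 and 14.02, and the .S values were 2.26, 2.27 and 2.27. The copies did not overlap in any of them, and the .S copy had only a bound. Set against the limit of 4, the .L copy was higher by at least 10.70 for rpl34, 11.03 for rps15 and 10.08 for rpl29 on the log2 scale. Limma's adjusted p was 2.53e-05 in each, for the measured .L minus .S difference against 0 and not for this bound. Each .S copy was measured by 1 probe set with the plain ending. These .S probe sets are among the 22 of 87 plain ribosomal probe sets under 4 (25.3%), against 27.4% of all such single-symbol probe sets. Why their values were low was not tested. The .L probe set of rpl34 ends in _s_at and can share signal with other transcripts.

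The gene rps20, which encodes a protein of the small subunit head, had the reverse order. Its .L copy had 13.89, 14.06 and 13.90, and its .S copy had 15.08, 15.10 and 15.04. The .L minus .S difference was -1.13 ± 0.04 (limma SE, n = 3 arrays, adjusted p = 0.000297). In linear signal the .S copy was 2.18-fold higher, and both probe sets have the plain ending. No call was made when limma tested the difference against 1 rather than against 0.

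The other 13 genes had smaller differences. The .L copy was higher by 0.81 for rplp2, 0.32 for rpl7a and 0.16 for rpl5. The .S copy was higher in rpl18 and rps3a, with .L minus .S differences of -0.60 and -0.52. In rpl17, rpl4, rpsa and rps10 the differences were -0.29, -0.28, -0.19 and -0.17. These 9 had an adjusted p under 0.05, with a limma SE between 0.03 and 0.07. With 1 replicate left out, the adjusted p was 0.0727 to 0.108 for rpl5, 0.0544 to 0.113 for rps10 and 0.0446 to 0.077 for rpsa, where it was under 0.05 only without replicate 3, and it stayed under 0.05 for the other 6. For rps3, rps12, rpl39 and rpl30 the differences were 0.05, 0.02, 0.02 and -0.05, with adjusted p of 0.282, 0.715, 0.678 and 0.289. The names of the rpl30 probe sets differ only in their ending, _at for .L and _s_at for .S. Those of rps3 end in _x_at and _s_at. Whether such probe sets read both copies was not tested. With plain _at probe sets the rpl30 difference was 0.69. Over all 17 genes the direction was kept under every alternative run in 12 genes and turned in 5, which are rpl7a, rpl17, rpl18, rpl30 and rps12. Among the 12, rpl34, rps15, rpl29, rps20, rpl5, rpl39, rpsa and rpl4 had 1 probe set per copy. For these no other choice of probe set could turn the direction, so that it was kept says nothing about that choice. The choice of probe set turned rpl7a, whose difference was -8.07 when all probe sets of a copy were averaged, and rpl18, for which the average gave 6.05. For rps12 the average gave 1.27 (adjusted p = 0.000127). With plain _at probe sets its .S copy was under 4 and its .L copy higher by at least 11.06. Limma's adjusted p there was 3.06e-05, for the measured difference of 13.03 against 0. For rps10 the average gave -8.91, in the same direction as with the highest probe set.

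**Figure D4:**
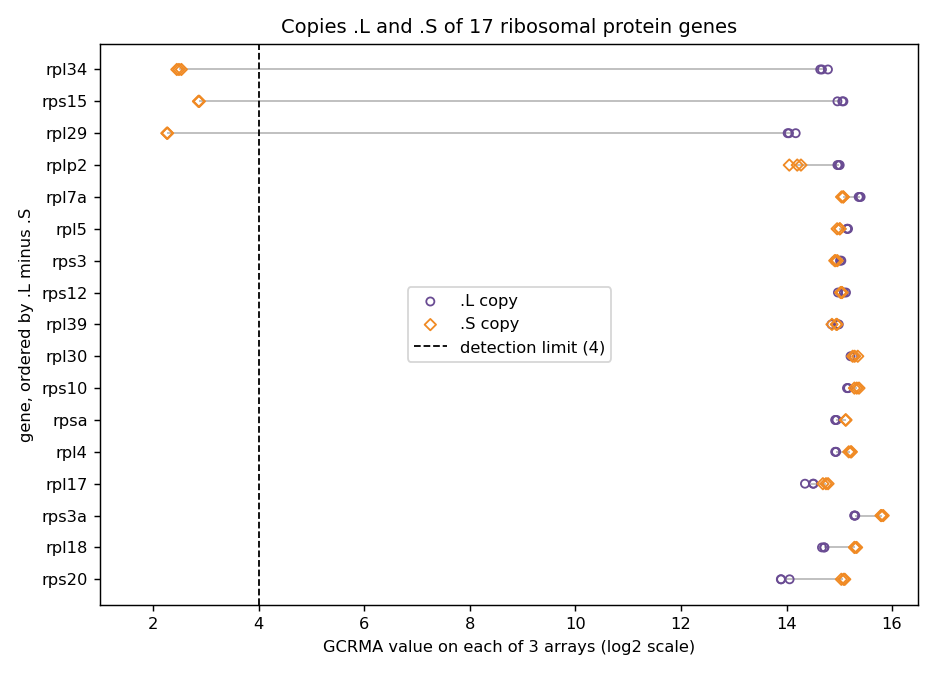
GCRMA value (log2 scale) of the .L and the .S copy on each of 3 arrays for the 17 ribosomal protein genes with both, ordered by the .L minus .S difference, with a dashed line at the detection limit of 4. In rpl34, rps15 and rpl29 the .S copy lies under 4, and in the other 14 genes both copies lie between 13 and 16.

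Replicates differed little. Over the highest probe sets the median SD was 0.03, against 0.12 for all annotated genes, and the medians of the 70 genes were 15.09, 15.09 and 15.05 in replicates 1, 2 and 3. Probe sets near the upper end of the scale vary less in general, so the members at 14 or higher were set beside other frog probe sets at 14 or higher. Their median SD was 0.026, against 0.048 in the 315 others, which include the 18 with several symbols. More of the members were at the very top, where spread is smaller. From 14 to under 15 the median SD was 0.046 in 48 members and 0.054 in 262 others, and at 15 or higher it was 0.020 in 54 members and 0.025 in 53 others. Replicate 3 was the lowest array in 72 of 102 members at 14 or higher (70.6%), against 49.5% of 315 others. The median of replicate 3 minus the mean of replicates 1 and 2 was -0.03 in both sets, so the members shared the order more often, at a like size. The muscle genes were also lower in replicate 3, by the values given above. Cartilage genes had medians of 14.96, 14.97 and 14.84 in replicates 1, 2 and 3, and red cell genes ran the other way, with 9.64, 10.08 and 10.93. The part of these tissues in the shift was not tested.

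The probe sets with the largest SD were secondary ones of genes with a brighter probe set. For rpl27, a large subunit gene, a .S probe set had 9.55, 9.76 and 11.71, so replicate 3 stood above the others. For rps25, which encodes a small subunit protein needed for internal initiation on some viral mRNAs, a .S probe set had 9.92, 9.97 and 9.03. For rpl14 a .S probe set had 8.58, 9.18 and 8.24. Replicate 3 was the lowest in both of these. A .L probe set of rpl36 had 5.52, 5.55 and 6.31 and a .S probe set of rpl10a had 2.88, 2.91 and 3.56, with replicate 3 highest. Each of the 5 genes had another probe set near 15, with a far smaller spread. The direction in replicate 3 thus differed among these probe sets.

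**Figure D5:**
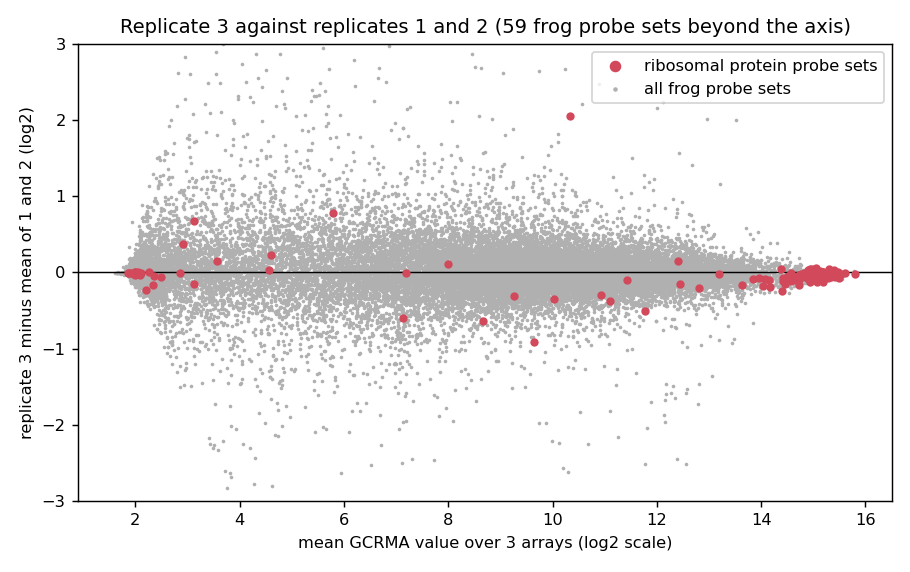
Deviation of replicate 3 from the mean of replicates 1 and 2 (log2 units) against the mean GCRMA value for ribosomal protein probe sets and for all frog probe sets, of which 59 lie outside the range shown and none of those is ribosomal. Ribosomal probe sets at 14 or higher lie in a narrow band with a median of -0.03, and the one far above it is rpl27.S, at 2.05.

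Genes that build ribosomes were detected as widely but at lower signal. Of 50 listed genes 41 had a probe set and 40 of them had a mean of 4 or higher, the same 40 being called by limma's test. Of all annotated genes 79.9% reached 4. Counted per probe set and not per gene, 63.1% of all frog probe sets and 71.8% of those with 1 symbol were called. The median of the 41 genes was 9.96, close to that of all annotated genes. Only ddx21, which encodes a nucleolar RNA helicase, reached 14, with 14.86, 14.96 and 14.97. The next were gtpbp4, which encodes a GTPase of large subunit assembly, with a mean of 13.79, ubtf, which encodes a factor for transcription of rRNA genes, with 13.78, and npm1, which encodes nucleophosmin, with 13.65. The lowest was efl1, which encodes the GTPase that helps to release eif6 from new large subunits, with a mean of 1.92 and no call above 4. Its partner sbds had 11.86.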

How the data were processed

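The deposited values are log2 intensities of 3 Affymetrix Xenopus laevis Genome 2.0 arrays, to which the authors had applied GCRMA, and the software is not given in the sources used here. Gene symbols came from the platform annotation. Gene IDs of 145 of 147 member probe sets matched RefSeq (assembly v10.1) with the same symbol and 2 had no entry. A gene had the value of its highest probe set, and copies were joined. The members and lists were chosen with earlier results of these data known. For means above 4, limma 3.58.1 (R 4.3.3) gave one-sided moderated tests, with a trend of variance on the mean. Their p-values were adjusted by Benjamini-Hochberg over 32475 probe sets. The .L minus .S differences were tested two-sided, with the same adjustment over 2009 genes. There the trend of variance was on the mean difference and not on the signal level. The other steps used Python 3.11.15, numpy 2.4.6, pandas 2.3.3 and matplotlib 3.10.9, and the fits were tested on simulated data. Genes were named for the 5 highest and 5 lowest means, called copy differences, a copy under 4, the 5 largest SDs, paralogues and known roles, and others after their values were seen. Sequences were not used here. Alternatives changed the probe set rule, thresholds, normalization, trend and arrays. The arrays are biological replicates, and their number limits the precision.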

Additional observations from a re-analysis of the deposited data

How the results depend on the processing

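Of 142 alternative values, 15 moved, 3 gained a call, 8 turned, and 116 stayed within the limits set for a like value, which for a count is 1.5 times, so that 48 of 57 genes at 4 or higher with plain _at is among them. With probe sets ending in plain _at only, 65 of 87 were above 4, and 2 genes had a higher .S copy. The median gene was then 14.72, with a rank percentile of 0.225. That percentile has another base, as 0.557% of all frog probe sets lay above 14.72. With the mean over probe sets, the median gene was 14.41 and the rank percentile 0.851. Of 17 genes, 5 were then higher in .L (29.4%, against 33.5% of all genes) and 3 in .S (17.6%, against 27.8%). With the adjusted p alone, 6 were higher in .L and 7 in .S. Against a difference of 1, limma's treat gave 0 ribosomal protein genes higher in .S, with 1 at an unadjusted p under 0.05. Of all genes with both copies 21.6% were then higher in .S. Chosen after seeing the data were full-length cDNA probe sets, with 47 of 52 above 4, and pairs with both copies at 4 or higher. Of 14 such pairs, 0 were higher in .L by limma at 1 or more and 2 at an unadjusted p under 0.05. The filter leaves out the 3 genes called higher in .L, and no other gene had .L higher by 1 or more. The 0 thus followed from the filter. In .S 1 of 14 (7.14%) was higher at 1 or more, and 7 were at an unadjusted p under 0.05. Of all genes with both copies at 4 or higher 30.4% were higher in .L and 24.3% in .S at 1 or more. Without 1 replicate, 123 to 124 probe sets were above 4, the median gene was 15.06 to 15.09 and its rank percentile 0.259 to 0.276, and the counts for .L and .S stayed at 3 and 1. The .L minus .S difference turned in rpl7a (-8.07 with the mean over probe sets, -11.49 with plain _at, where .L is under 4 and .S higher by at least 11.06), rpl30 (0.32 and 0.69), rpl17 (0.16 and 0.60), rpl18 (6.05 with the mean) and rps12 (-0.019 to 0.069 without 1 replicate, the lowest without replicate 2). Fewer probe sets were used with plain _at and with full-length cDNA. The share at 4 or higher moved as well, from 84.4% to 74.7% with plain _at and to 90.4% with full-length cDNA. The cause of the shifts was not tested. With 3 arrays of 1 condition, probe affinity, saturation and shared probes limit any ranking of genes or copies.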
